A study of Mus musculus with 25 samples.

Results

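The CD surface antigen genes were taken from GENCODE for mm9 as those protein-coding genes whose symbol is Cd followed by a digit, without Cd2ap and Cd2bp2, which encode adaptor proteins. They were 94 of 22208 protein-coding genes, and were placed in lists of 6 erythroid, 29 myeloid, 32 lymphoid, 3 stem and progenitor, 4 pan-leukocyte and 20 broad or other antigens. A symbol does not make a surface protein, since Cd3eap, which the rule takes in, encodes a protein of RNA polymerase I. GATA1 and TAL1 were mapped by ChIP-exo, chromatin immunoprecipitation in which an exonuclease trims the DNA to the edge of the cross-linked protein, in mouse erythroid progenitor lines of strain 129. G1E cells lack GATA1, and G1E-ER4 cells are derived from them and carry GATA1 as an estrogen receptor fusion that estradiol activates, so the cells of both lines lack the native protein. The G1E-ER4 cells were taken after 0, 3 and 24 h of estradiol, with 3 GATA1 libraries at each time and 5, 3 and 3 TAL1 libraries in the same order, and the G1E cells gave 1 GATA1 and 4 TAL1 libraries. The deposited lists pool the libraries of a factor, and each entry is a position of 1 base with no tag count, score, time or replicate. Hence, the values below are numbers of positions, with no replicate error and no depth behind them, and neither time points nor cell lines could be compared. The lists do not measure RNA or protein, so whether these cells carry the antigens, including those that mark the erythroid lineage, was not tested.

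CD antigens are surface molecules that antibodies recognize, and the pattern of antigens on a blood cell is used to tell its lineage and stage. GATA1 binds the motif WGATAA and is required for red cell maturation. TAL1 is a basic helix-loop-helix protein that pairs with E2A proteins, binds E-boxes and often joins GATA1 in 1 complex.

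The authors deposited 3 lists per factor. Peak pairs are peaks on opposite strands that face each other, MultiGPS locations come from a model of the tag pattern, and the final locations are the MultiGPS locations with a peak pair within 100 bp. An entry was counted for a gene if it lay in the gene or within 10 kb of it. At the CD antigen genes there were 39 GATA1 final locations of 10290 in the genome, 48 MultiGPS locations of 12781 and 135 peak pairs of 46666. For TAL1 there were 47 final locations of 15209, 52 MultiGPS locations of 17639 and 155 peak pairs of 63546. Of the final locations, 4 were counted for both Cd59a and Cd59b, which are neighbors.

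GATA1 and TAL1 final locations under 40 bp apart were called cooccupied. The DNA is shown for part of the cooccupied GATA1 locations. These are at Cd44, an erythroid antigen, at Cd46, Cd80, Cd151 and Cd180, and at Cd59a, Cd59b and Cd200r2, whose gene families recur below. Each stretch has 61 bases of mm9 centered on the GATA1 location, with AGATAA or TGATAA on either strand in capitals. Not shown are the stretches of Cd97, Cd247, Cd274 and the second cooccupied Cd180 location, which held no copy of the motif, and of Cd200r3, which held 1.
Cd44, chr2:102726659-102726719, plus strand: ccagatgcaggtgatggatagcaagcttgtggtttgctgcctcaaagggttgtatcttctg
Cd59a, chr2:103938760-103938820, plus strand: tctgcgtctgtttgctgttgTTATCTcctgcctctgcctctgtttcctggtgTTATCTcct
Cd59b, chr2:103918637-103918697, plus strand: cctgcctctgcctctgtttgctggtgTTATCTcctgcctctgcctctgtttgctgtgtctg
Cd80, chr16:38468651-38468711, plus strand: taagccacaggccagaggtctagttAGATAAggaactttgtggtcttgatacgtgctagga
Cd46, chr1:196927051-196927111, plus strand: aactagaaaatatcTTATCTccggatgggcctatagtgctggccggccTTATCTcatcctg
Cd151, chr7:148654905-148654965, plus strand: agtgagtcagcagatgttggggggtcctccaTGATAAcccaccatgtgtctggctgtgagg
Cd180, chr13:103529958-103530018, plus strand: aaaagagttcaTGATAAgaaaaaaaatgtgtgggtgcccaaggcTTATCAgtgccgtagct
Cd200r2, chr16:44877879-44877939, plus strand: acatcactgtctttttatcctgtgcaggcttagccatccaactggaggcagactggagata
The next 3 stretches are centered on TAL1 locations just upstream of genes of the Cd200r family, and were picked out after their values were seen.
Cd200r1, chr16:44765756-44765816, plus strand: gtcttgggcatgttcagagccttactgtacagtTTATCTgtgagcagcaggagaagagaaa
Cd200r4, chr16:44820767-44820827, plus strand: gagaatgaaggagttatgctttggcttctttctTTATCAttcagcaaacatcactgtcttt
Cd200r3, chr16:44943683-44943743, plus strand: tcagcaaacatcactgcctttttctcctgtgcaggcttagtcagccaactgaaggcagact
The Cd59a, Cd46 and Cd180 stretches each held 2 copies of the motif, 1 on either side of the center, and the Cd44, Cd200r2 and Cd200r3 stretches held none. Within the 40 bp used for motifs below, which reaches past the printed bases, the Cd200r2 GATA1 location had 2 copies and the Cd200r3 TAL1 location had 1. Cd44 had none there either. Of the cooccupied locations not shown, those of Cd97 and Cd274 also had 1 copy within 40 bp.

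Most CD antigen genes had no final location, and as a group they were called about as often as other genes. A GATA1 location lay at 21 of the 94 genes (22.3%), against 23.9% of all protein-coding genes. A TAL1 location also lay at 21 genes (22.3%), against 21.3% of all genes. Both factors were present at 17 genes (18.1%), against 16.3% of all genes, and at least 1 factor at 25 genes (26.6%), against 29.0%. Of the 25 genes, 4 had GATA1 alone and 4 had TAL1 alone. A cooccupied GATA1 location was found at 12 genes (12.8%), against 11.1% of all genes. The shares of the group therefore lay near the genomic background in each of these counts. The 25 genes with a location were longer than the 69 without, with median lengths of 30.6 and 11.6 kb, and the same held over all genes, with medians of 27.2 and 12.0 kb.

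**Figure D1:**
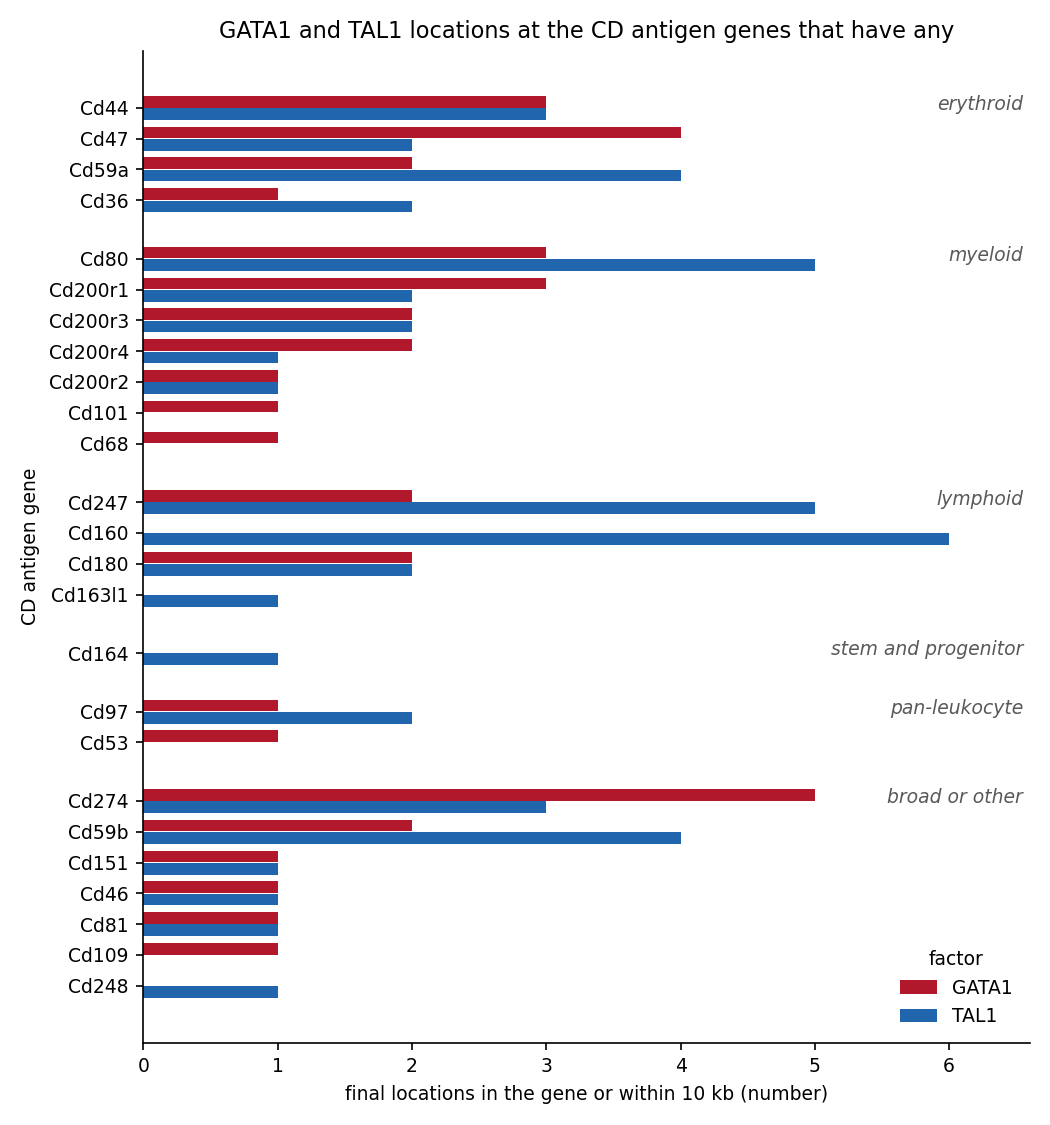
Number of GATA1 (upper bar) and TAL1 (lower bar) final locations in the gene or within 10 kb, for the 25 CD antigen genes with any, grouped by antigen list. Cd160 had the most TAL1 locations (6) and no GATA1 location, and Cd274 had the most GATA1 locations (5).

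The erythroid, myeloid and lymphoid lists had different shares of antigens with a location, which are given as counts without a test. Of the 6 erythroid antigens, 4 had locations of both factors (66.7%), against 16.3% of all genes. Of the 29 myeloid antigens, 7 had a GATA1 location (24.1%), 5 a TAL1 location (17.2%) and 5 both (17.2%), near the 23.9%, 21.3% and 16.3% of all genes. Of the 32 lymphoid antigens, 2 had a GATA1 location (6.25%), 4 a TAL1 location (12.5%) and 2 both (6.25%), below the same shares of all genes. Gene length moved with these counts, with median lengths of 41.6 kb for erythroid, 13.2 kb for myeloid and 12.3 kb for lymphoid antigens, against 15.5 kb for all genes, and its part in the counts was not tested. Per Mb of gene and 10 kb flanks, the erythroid antigens had 23.5 GATA1 and 25.8 TAL1 locations. The myeloid antigens had 12.1 GATA1 and 10.2 TAL1 locations per Mb, and the lymphoid antigens 3.00 and 10.5. Over all CD antigen genes there were 9.83 GATA1 and 11.8 TAL1 locations per Mb, against 6.42 and 9.10 per Mb around all protein-coding genes. Per gene the order was the other way, with means of 0.426 GATA1 and 0.532 TAL1 locations per CD antigen gene, against 0.468 and 0.662 per protein-coding gene. The erythroid densities rest on 10 GATA1 and 11 TAL1 locations at 4 genes. The lymphoid antigens had 4 GATA1 locations in all, beside 14 of TAL1. The lymphoid count of 4 genes with either factor (12.5%, against 29.0% of all genes) moved with the distance allowed, as did the share of all genes. It was 2 of 32 when only gene bodies were used, against 17.6% of all genes, and 8 of 32 within 20 kb, against 36.0%.

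**Figure D2:**
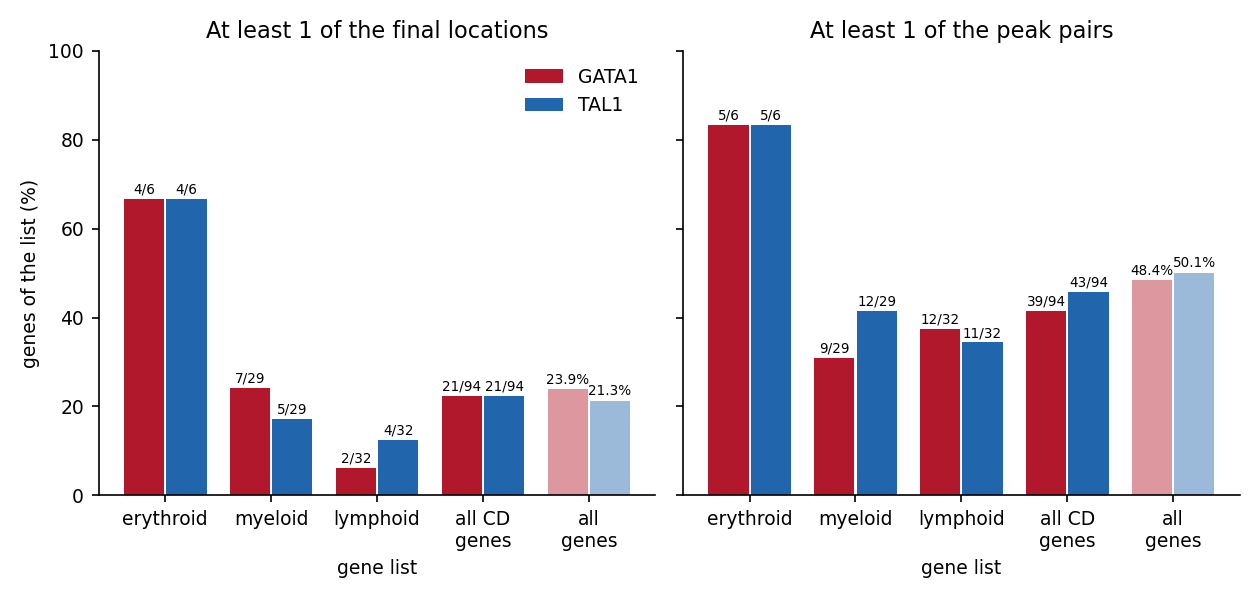
Percent of the genes of each list with at least 1 final location (left) or peak pair (right) of GATA1 and TAL1 in the gene or within 10 kb; the numbers on the bars are genes called of genes in the list, and the pale bars give all protein-coding genes. With final locations the erythroid bars stand at 4 of 6 genes, above the other lists, and the lymphoid GATA1 bar at 2 of 32.

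Among the erythroid antigens, Cd44 encodes the hyaluronan receptor, which is lost from the surface as erythroblasts mature. It had 3 GATA1 and 3 TAL1 final locations, all in introns. GATA1 and TAL1 met at an intron site about 15 kb into the gene, where GATA1 at chr2:102726689 and TAL1 at chr2:102726688 were 1 bp apart. GATA1 locations also lay at 102726805 and 102727352, and a pair of TAL1 locations lay deeper in the gene at 102707848 and 102708022. None of the 3 GATA1 locations had AGATAA or TGATAA within 40 bp. At the cooccupied site the bases of the E-box CAGATG stand near the start of the stretch shown above. The peak pair list had 10 GATA1 and 12 TAL1 entries at Cd44.

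Cd47 encodes the surface protein that protects red cells from phagocytosis. It had 4 GATA1 and 2 TAL1 final locations, and none was cooccupied. The GATA1 location in the intron 1362 bp from the 5′ end, at chr16:49857093, lay on a WGATAA site, and the TAL1 location at 49859421 was 2328 bp from it. GATA1 was also located 2579 bp upstream of the gene, and TAL1 7372 bp upstream. Within the 10 kb limit, the final locations of the 2 factors at Cd47 thus lay 2328 bp or more apart. Counted by closest start site at any distance, Cd47 had 10 GATA1 and 22 TAL1 final locations. Distances between the factors at those farther out were not examined.

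Cd36 encodes a scavenger receptor that binds fatty acids and thrombospondin and is carried by erythroid progenitors. It had 1 GATA1 location, at chr5:17385293, and 2 TAL1 locations, at 17386859 and 17335183, all in introns. The closest GATA1 and TAL1 locations were 1566 bp apart. Cd36 was the longest of the erythroid antigens, at 107270 bp.

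Cd59a and Cd59b encode inhibitors of the terminal complement complex, which protect red cells from lysis. Cd59a is among the erythroid antigens and Cd59b among the broad or other antigens. Cd59a had 2 GATA1 and 4 TAL1 final locations. Cd59b had the same numbers, but 1 GATA1 and 3 TAL1 of them were the Cd59a intron locations, which lie 7446 to 7604 bp downstream of Cd59b, so its own intron held 1 of each. In the Cd59a intron, GATA1 at chr2:103938790 and TAL1 at 103938802 were 12 bp apart, and 2 more TAL1 locations followed within 158 bp of the GATA1 location. In the Cd59b intron, GATA1 at 103918667 and TAL1 at 103918655 were also 12 bp apart, with TAL1 on the other side. The GATA1 locations of both genes were 20123 bp apart and lay in similar DNA. The Cd59b stretch matched the surroundings of the Cd59a location at 54 of 61 bases, without gaps, with the match centered 26 bp from the location. In the other direction, the Cd59a stretch matched the surroundings of the Cd59b location at 49 of 61 bases. A run of 27 bases with a WGATAA site was identical in the 2 stretches. Across 238 ordered comparisons among 16 such stretches, the most identical bases between genes of different families was 36. Cd59a also had a GATA1 location 8305 bp and a TAL1 location 6822 bp downstream, which were closest to the start site of A930018P22Rik.

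The remaining erythroid antigens, Cd24a and Cd55, had no final location. Cd24a, the heat-stable antigen of erythroid and B-lineage precursors, had 1 GATA1 and 1 TAL1 peak pair. Cd55, which encodes decay-accelerating factor, a complement inhibitor, had no entry in any of the 6 lists. It was the closest gene to 2 GATA1 and 3 TAL1 final locations beyond the 10 kb limit, the nearest 24.6 kb from its start site. Such locations were not particular to the erythroid list, since some stem and progenitor, lymphoid and myeloid antigens without a final location had them too.

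**Figure D3:**
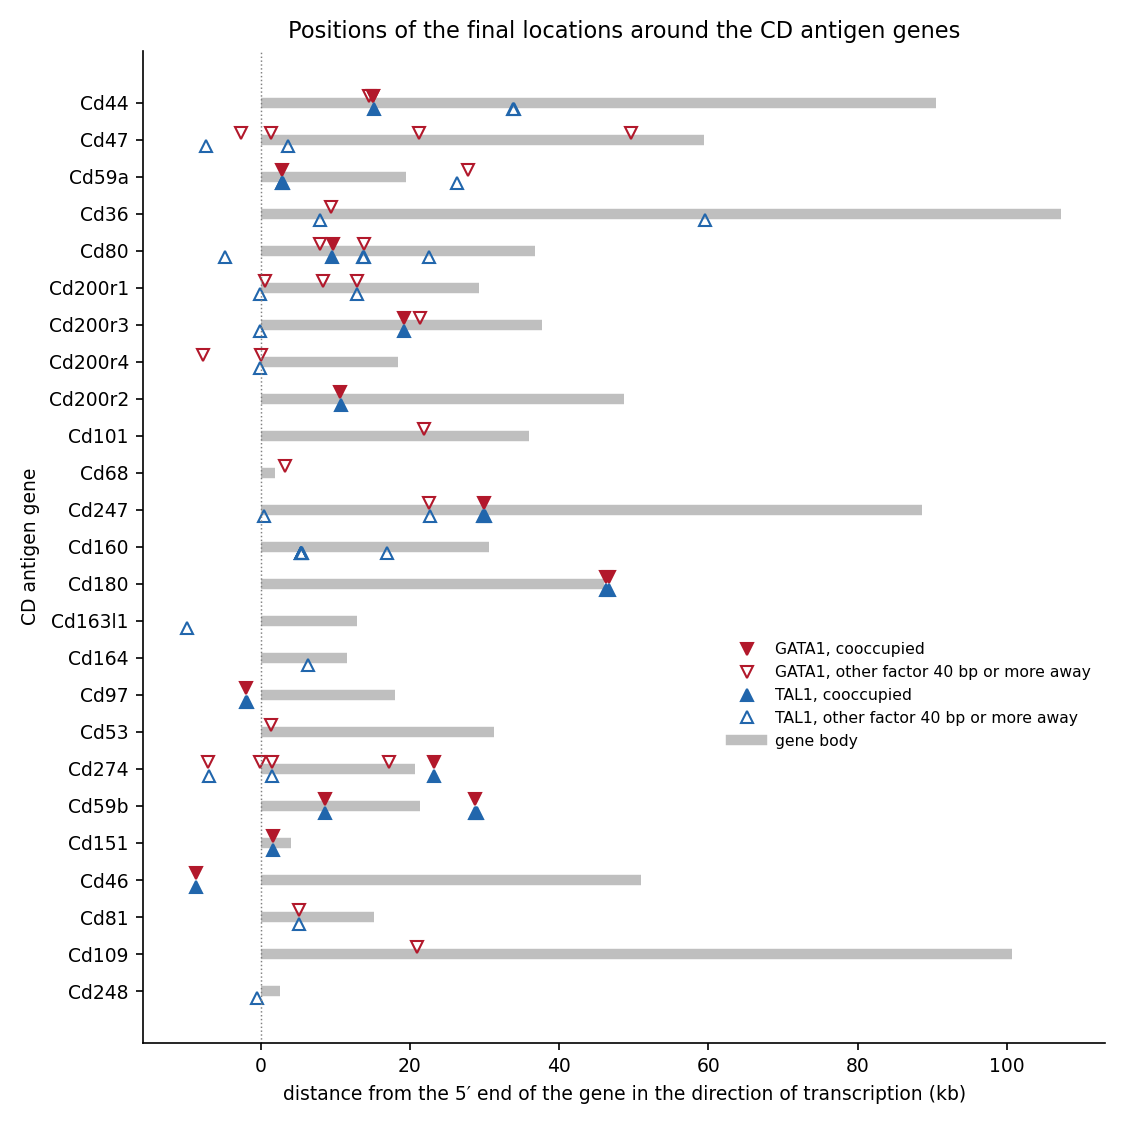
Final locations of GATA1 (red, pointing down) and TAL1 (blue, pointing up) by their distance in kb from the 5′ end of each CD antigen gene, negative upstream, with gene bodies in gray and cooccupied locations filled. Cooccupied locations stand in introns of Cd44, Cd59a, Cd59b, Cd80, Cd151, Cd200r3 and Cd247, in an exon of Cd200r2, and outside the gene at Cd46, Cd97, Cd180 and Cd274.

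Of the myeloid antigens with a location, 4 of 7 belonged to the Cd200r genes, which encode receptors for the inhibitory surface protein CD200 and their relatives. These 4 genes stand in 216 kb of chromosome 16 and had 8 GATA1 and 6 TAL1 final locations between them, of which 2 GATA1 locations were cooccupied. Without them, 3 of 25 myeloid antigens had a location of either factor, a share below the 29.0% of all genes. Cd200r1 had 3 GATA1 and 2 TAL1 locations, Cd200r3 had 2 of each, Cd200r4 had 2 and 1, and Cd200r2 had 1 of each. TAL1 lay just upstream of 3 of the genes, at 63 bp for Cd200r1, 78 bp for Cd200r3 and 44 bp for Cd200r4. GATA1 was located 457 bp from a Cd200r1 start site, 268 bp from a Cd200r3 start site and 20 bp from the Cd200r4 start site. That Cd200r3 start site is an internal one, and the GATA1 location was 21308 bp from the 5′ end of the gene, far from the upstream TAL1 location. At Cd200r4, GATA1 at chr16:44820861 and TAL1 at 44820797 were 64 bp apart, and at Cd200r1 the intron locations at 44778837 and 44778792 were 45 bp apart, so both fell outside the 40 bp limit. At Cd200r3 the intron locations at 44963045 and 44963049 were 4 bp apart.

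Start-site DNA of the Cd200r family recurred at Cd200r2. Cd200r2 was picked out after its values were seen, and its GATA1 and TAL1 locations, at chr16:44877909 and 44877924, lay in a noncoding exon 10699 and 10714 bp from its start site. The stretch around the GATA1 location matched DNA centered 47 bp from the Cd200r4 TAL1 location at 57 of 61 bases. It matched DNA centered 7 bp from the Cd200r3 TAL1 location at 55 of 61 bases. In the other direction, the Cd200r4 and Cd200r3 TAL1 stretches matched the surroundings of the Cd200r2 GATA1 location at 43 and 56 of 61 bases. The Cd200r1 start-site stretch had no such match. Reads that map to several places were removed by the authors, which limits the reads that near-identical stretches can receive.

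Cd80, which encodes a costimulatory ligand for T cells on antigen-presenting cells, had 3 GATA1 and 5 TAL1 final locations. It had the most TAL1 peak pairs of any CD antigen gene, 18, beside 10 GATA1 peak pairs. In its introns GATA1 at chr16:38468681 lay on AGATAA with TAL1 36 bp away at 38468645, and GATA1 at 38472876 had TAL1 44 bp away at 38472832. The upstream TAL1 location of Cd80 was closer to the start site of Adprh, at 1471 bp. Cd68, which encodes a lysosomal glycoprotein of macrophages, had 1 GATA1 location, which lay 257 bp from the start site of Mpdu1 and 1314 bp beyond the end of Cd68. Cd101, picked out after its values were seen, had 1 intron GATA1 location, and the closest final TAL1 location was 215702 bp away, while the MultiGPS and peak pair lists each had 1 TAL1 entry within 10 kb of the gene. Cd14, the lipopolysaccharide coreceptor of monocytes, and Cd33, a sialic acid-binding lectin, had no entry in any list. All 7 Cd209 and all 8 Cd300 genes, 2 of which (Cd300lg and Cd300lh) were placed with the broad or other antigens, lacked a final location, as did 71.0% of all protein-coding genes.

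The lymphoid antigens with locations were few and together carried more TAL1 than GATA1. TAL1 locations also outnumbered GATA1 locations around all protein-coding genes, with 9.10 against 6.42 per Mb. Cd247 encodes the zeta chain of the T cell receptor complex and had 2 GATA1 and 5 TAL1 locations, all in introns. At its cooccupied site GATA1 at chr1:167748770 had TAL1 12 bp away, in a cluster of 3 TAL1 locations, and no WGATAA within 40 bp. A separate TAL1 location lay 313 bp from a Cd247 start site. Cd160 encodes a receptor of natural killer and T cells and had 6 TAL1 locations, of which 5 formed a cluster in an intron between chr3:96627702 and 96627862. The closest final GATA1 location was 89861 to 101368 bp from them, while the MultiGPS list had 1 GATA1 entry within 10 kb of the gene. The cluster was slightly closer to the start site of Pdzk1, at 5345 to 5505 bp, than to that of Cd160, at 5412 to 5572 bp. Within the cluster, the TAL1 locations at chr3:96627861 and 96627862 were on adjacent bases, so the 6 locations are not necessarily separate sites. Over all genes, 3.24% had at least 6 TAL1 locations.

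Cd180 encodes a Toll-like receptor homolog of B cells and had 2 GATA1 and 2 TAL1 locations, all within 593 bp downstream of the gene. They formed 2 cooccupied pairs, 39 and 6 bp apart, and the closest start site was that of Mast4, at 30847 to 31200 bp. Cd163l1, picked out after its values were seen, had 1 TAL1 location 9835 bp upstream, closer to the start site of Olfr524. The T and B cell antigens named next are used to sort these lineages, and none of them had a final location, which held for 71.0% of all genes too. Cd3d, Cd3e, Cd3g, Cd4, Cd8a and Cd79b had no entry in any of the 6 lists. Cd8b1, the beta chain of the T cell coreceptor, had 1 GATA1 peak pair. Cd79a, a signaling chain of the B cell receptor, had 3 GATA1 and 4 TAL1 peak pairs but no MultiGPS location. Among the stem and progenitor antigens, Cd34, a sialomucin of early progenitors, had 2 GATA1 peak pairs and no final location within 10 kb. Beyond that limit, Cd34 was the closest gene to 2 GATA1 and 1 TAL1 final locations, the nearest at 42.4 kb. Cd164, picked out after its values were seen, had 1 intron TAL1 location.

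Antigens outside these lineages included the gene with the most GATA1 final locations inside the 10 kb limit. Cd274, which encodes an inhibitory ligand of T cells, had 5 GATA1 and 3 TAL1 final locations and 14 GATA1 peak pairs, the most of any CD antigen gene. Each of its 5 GATA1 locations had WGATAA within 40 bp. One lay 41 bp upstream of Cd274 and 24 bp from the start site of 5033414D02Rik. GATA1 and TAL1 were 65 bp apart in the upstream region at chr19:29434943, 40 bp apart in the intron at 29443448, and 22 bp apart downstream at 29465197, so 1 of the 3 pairs met the limit for cooccupancy. Over all genes, 1.52% had at least 5 GATA1 locations. Counted by closest start site at any distance, Cd274 had 2 GATA1 final locations and the erythroid antigen Cd47 had 10.

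The tetraspanins Cd81 and Cd151, which organize other membrane proteins, each had 1 location of each factor near a start site. At Cd81, GATA1 and TAL1 lay 663 and 722 bp from a start site and 59 bp apart. At Cd151 they lay 247 and 210 bp from a start site and 37 bp apart, with GATA1 beside TGATAA. Cd248, which encodes the stromal protein endosialin, had 1 TAL1 location 515 bp upstream and no GATA1 entry. With Cd200r1, Cd200r3, Cd200r4, Cd247 and Cd274, these made 8 genes with a location under 1 kb from one of their own start sites. The matching share of all genes is not given, so this count stands without a background. Cd97, an adhesion receptor found on most leukocytes, had 1 GATA1 and 2 TAL1 locations, all 1826 to 1942 bp upstream. Cd46, Cd53 and Cd109 were picked out after their values were seen. Cd46, a complement regulator, had a cooccupied pair 23 bp apart and 8616 to 8639 bp upstream. Cd53, a leukocyte tetraspanin, had a final location of GATA1 alone, 1388 bp from its start site. Cd109, a protease inhibitor homolog, also had a final location of GATA1 alone, in a coding exon. The peak pair list had 1 TAL1 entry at Cd53 and 3 at Cd109.

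Cooccupancy and motif content at the CD antigen genes were compared with those at all other locations of the same factor. GATA1 locations were cooccupied by TAL1 in 13 of 39 cases, or 33.3% (95% exact binomial interval, 19.1 to 50.2%), against 35.9% of 10251 other GATA1 locations. The odds ratio was 0.891 (95% interval, 0.420 to 1.80) in a two-sided Fisher's exact test (p = 0.868, adjusted p = 1.00 over the 4 tests given here). TAL1 locations were cooccupied by GATA1 in 13 of 47 cases, or 27.7% (15.6 to 42.6%), against 27.5% of 15162 others, with an odds ratio of 1.01 (0.488 to 1.96) and p = 1.00 in the same exact test. WGATAA lay within 40 bp of 23 of 39 GATA1 locations, or 59.0% (42.1 to 74.4%), against 66.5% of the others, with an odds ratio of 0.724 (0.366 to 1.47) and an exact p = 0.314 (adjusted p = 1.00). For TAL1 it lay within 40 bp of 22 of 47 locations, or 46.8% (32.1 to 61.9%), against 45.9%, with an odds ratio of 1.04 (0.556 to 1.92) and an exact p = 1.00. No difference was detected in these 4 tests, whose intervals for the odds ratio together span 0.366 to 1.96. The intervals cover counting error only and treat neighboring locations as independent.

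**Figure D4:**
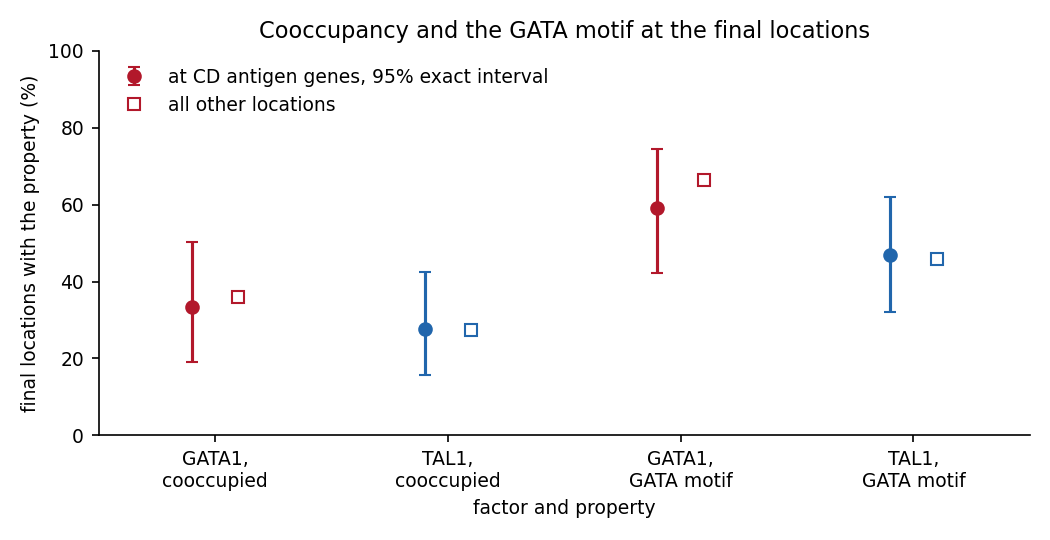
Percent of final locations that are cooccupied by the other factor or have WGATAA within 40 bp, at CD antigen genes (filled, with 95% exact binomial intervals) and at all other locations of the factor (open). All 4 intervals include the share of the other locations.

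The motif was present more often at the members' locations than beside them. When the windows were moved 1 kb along the chromosome, WGATAA was found at 4 of 39 for GATA1 and at 2 of 47 for TAL1. TG with 7 or 8 bases between it and WGATAA was present at 5 GATA1 locations (12.8%), against 21.9% of all GATA1 locations, and at 9 TAL1 locations (19.1%), against 25.0%. The E-box CAGATG or CAGCTG, on either strand, lay within 40 bp of 9 GATA1 (23.1%) and 12 TAL1 locations (25.5%), against 17.2% and 21.7% of all locations. These shares were not tested. In the cooccupied pairs of CD antigen genes the factors were 1 to 39 bp apart with a median of 12.0 bp, against a median of 15.0 bp over all cooccupied GATA1 locations. Another 6 GATA1 locations (15.4%) had TAL1 at 40 bp or more but under 100 bp, against 12.0% of all.

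The locations stood mostly inside the genes. Introns held 25 GATA1 and 31 TAL1 locations, exons 3 and 1, and 11 and 15 were outside the genes. A member of the group had the closest start site for 32 GATA1 and 35 TAL1 locations. Under 1 kb from a start site of any gene lay 9 GATA1 locations (23.1%), against 12.4% of all GATA1 locations, and 9 TAL1 locations (19.1%), against 9.85%. Since the members' locations were taken near genes, the closer comparison is with locations in or within 10 kb of any protein-coding gene, of which 15.8% for GATA1 and 13.1% for TAL1 were this close to a start site. TAL1 locations under 500 bp from a TAL1 neighbor were 19 of 47 (40.4%), against 64.4% of all TAL1 locations. Such clusters held 4 of 39 GATA1 locations (10.3%), against 13.7%. Each member location had on average 1.72 GATA1 or 2.17 TAL1 peak pairs of its own factor within 100 bp, against 2.13 and 3.24 over all locations. These values are descriptions without a test, since genes and clusters hold several locations each.

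The 3 kinds of list gave different numbers of genes. MultiGPS alone added 1 gene per factor, with 22 for GATA1 (23.4%), against 27.5% of all genes, and 22 for TAL1 (23.4%), against 24.8%. Peak pairs were found at 39 genes for GATA1 (41.5%), against 48.4% of all genes, and at 43 genes for TAL1 (45.7%), against 50.1%. Peak pairs without any final location marked 31 genes (33.0%), against 34.1% of all genes. They included 14 lymphoid antigens, 7 myeloid antigens and 1 erythroid antigen. No entry of any list was found at 38 genes (40.4%), against 36.1% of all genes, among them 15 myeloid, 14 lymphoid and 1 erythroid. At the CD antigen genes 66 of 135 GATA1 peak pairs (48.9%) and 83 of 155 TAL1 peak pairs (53.5%) lay within 100 bp of a final location, against 46.1% and 50.1% of all peak pairs.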

How the data were processed

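GATA1 and TAL1 ChIP-exo libraries, 10 and 15 in number, were pooled by the authors into the lists used here. Per the labels and the methods, base calls were made with CASAVA 1.7 and bcl2fastq 2.15, and reads were aligned to mm9 with Bowtie 1.00 or BWA 0.6.2 and 0.7.9a. Reads mapping to several places were removed, blacklisted regions were left out, and calls had to exceed the input. The other unit deposited by the authors is a genome position, with no count, so depth was not used here. The G1E library of GATA1 is tied to the GATA1 lists in the labels, whereas the methods describe merged GATA1 data of G1E-ER4 cells only, and whether it entered the lists is not known.

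Positions were matched to protein-coding genes of GENCODE for mm9 on the chromosomes with entries. Where a name had several entries, the longest was used. Cooccupancy was set at under 40 bp, clusters at under 500 bp, and motifs were exact strings within 40 bp. The 4 comparisons of shares used Fisher's exact test, two-sided, with Benjamini-Hochberg adjustment, at a threshold of 0.05. Sequence stretches were compared without gaps, on either strand and at shifted positions around the other location. The members and antigen lists were chosen with earlier results of these data known, and the lists follow textbook expression. Genes were named if they had at least 2 final locations of a factor, were erythroid antigens, were among a set of lineage-defining antigens, of which 1 is not reported here, or had a location under 1 kb from their own start site. Alternatives changed the list, the distance, the assignment, the cooccupancy and motif limits, the clusters and the gene with the most locations. The counting and the tests were tested on simulated data. Python 3.11.15, numpy 2.4.6, scipy 1.17.1 and matplotlib 3.10.9 were used.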

Additional observations from a re-analysis of the deposited data

How the results depend on the processing

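The counts of genes depended most on the list. With peak pairs in place of final locations, GATA1 marked 39 CD antigen genes (41.5%, against 48.4% of all genes), TAL1 43 (45.7%, against 50.1%) and both 26 (27.7%, against 35.4%). Either factor marked 14 of 29 myeloid and 18 of 32 lymphoid antigens, against 63.0% of all genes. With final locations the same counts were 21, 21, 17, 7 and 4, and either factor marked 29.0% of all genes. With gene bodies only, 2 lymphoid antigens had a location, against 17.6% of all genes, and within 20 kb there were 8, against 36.0%. Without the 4 Cd200r genes, an alternative chosen after seeing the data, 3 of 25 myeloid antigens had one, against 29.0% of all genes. The other counts under MultiGPS locations, 5 kb, 20 kb, gene bodies and the closest start site stayed within 1.5 times their value. The odds ratios near 1 changed side. GATA1 cooccupancy gave 1.04 within 20 kb and 1.03 with a limit of 100 bp. TAL1 cooccupancy gave 0.880 in gene bodies, 0.976 with 1 location per cluster and 0.804 with a limit of 100 bp. WGATAA at TAL1 locations gave 0.805 in gene bodies and 0.968 with 1 location per cluster. No alternative gave a p under 0.05 by Fisher's exact test, the lowest being 0.103 for GATA1 locations with WGATAA when Cd274 was left out. No paired analysis was possible because the lists pool the libraries, and for the same reason no replicate could be left out. A gene without an entry may be bound below the authors' thresholds, and distance does not show which gene a location acts on.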
